A study of Mus musculus with 10 samples.

Results

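Mallory-Denk bodies are inclusions that form in injured hepatocytes, and feeding mice DDC (a porphyria-inducing compound that injures hepatocytes and bile ducts) is the classic way to raise them. Their core is keratin 8 and keratin 18, the filament pair of the hepatocyte, misfolded and crosslinked by transglutaminase 2. The ubiquitin-binding protein p62, made from Sqstm1, gathers the ubiquitinated material and hands it to autophagy, with small and large heat shock proteins attached. The 10 genes described here were listed by name for these roles: the keratins Krt8, Krt18 and Krt23, the autophagy receptors Sqstm1 and Nbr1, the crosslinking enzyme Tgm2, and the chaperones Hspb1, Hspa1a, Hspa1b and Cryab. They are 10 of the 55385 genes in the count table, and all 10 passed the filter on low counts that left 14200 genes to test. No inclusion was measured, so every value below is a level of RNA.

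The libraries are RNA-seq of mouse liver labelled hepatocyte, from C57BL/6J 129SV mice carrying floxed EP300, the gene of a histone acetyltransferase. All of these mice ate DDC and received a pT3-cMet plasmid by hydrodynamic injection, with treatment given as 5 months. The EP300 KO group (2 libraries) was injected with AAV-TBG-Cre, a virus whose TBG promoter drives Cre in hepatocytes, and its genotype is given as EP300-/-. The EP300 WT group (2 libraries, genotype EP300f/f) was injected with AAV-TBG-GFP. Every library therefore comes from liver under DDC and cMet, and none shows the members without injury. Liver cells were perfused and sorted, with no gate named. The labels give no age or sex and name no animal for any library, and pooling is mentioned, so p-values measure the spread between libraries, which may be technical.

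Total counts were 17709799 to 18831671 per library. The targeted gene did not fall: Ep300 stood at 73.7 and 72.3 CPM (counts relative to the TMM-scaled library size) in EP300 KO and at 62.3 and 57.9 in EP300 WT (log2 fold change 0.28, SE 0.07, edgeR adjusted p = 0.00498, and 0.128 without EP300 WT replicate 2). These counts cover the whole gene and the floxed part was not read separately, so they do not show whether the deletion took place. EP300 KO therefore means, throughout, the libraries labelled EP300 KO. Xist, the RNA of the inactive X chromosome, had 2310 and 1411 counts in EP300 KO and 3 and 2 in EP300 WT, and a difference in the sex of the animals cannot be told apart from the label. Of 9 hepatocyte markers tested 3 rose and 4 fell, with sums of 119700 to 125800 CPM in EP300 KO and 143400 to 144500 in EP300 WT. Of the biliary markers, whose cells also make keratins 8 and 18, the defining keratins were near 0, with 4 to 10 counts of Krt7 and 9 to 14 of Krt19 per library. The 12 biliary markers summed to 138.4 and 144.1 CPM in EP300 KO and 209.3 and 213.5 in EP300 WT. Of the 9 tested 3 fell, 1 (Cldn4) rose and 5 did not pass, among them Krt19 and Epcam. Most of the difference in the sum lay in Prom1 (7.29 and 10.1 CPM in EP300 KO, 44.9 and 46.9 in EP300 WT) and Spp1 (95.6 and 95.8 against 125.8 and 127.6). Markers of stellate cells (5 of 9 fell, summed 200.4 to 206.5 CPM against 307.5 to 313.9) and endothelium (5 of 10 fell, 329.5 to 364.6 against 404.7 to 410.5) also had lower sums in EP300 KO. Most of the stellate difference lay in Reln, at 30.9 and 32.9 CPM in EP300 KO and 118.9 and 112.9 in EP300 WT. The 4 stellate markers that were not called include Dcn. Of 10 macrophage markers 3 fell and 2 rose (895.2 to 908.5 CPM against 994.6 to 1003). Of the markers tested, 2 of 3 for smooth muscle, 3 of 5 for neutrophils, 1 of 2 for lymphocytes and 0 of 1 for mesothelium fell, and none of these rose. The part of any of these in the results below was not tested. In bulk RNA, fewer cells of a type and less RNA per cell cannot be told apart.

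The RefSeq table of promoters (GRCm38.p6, 250 bases before to 50 after the start) holds 8 of the 10 members. The chaperone promoters are shown because Hspb1 fell between the groups while Hspa1a and Hspa1b did not pass the test and to show how alike the promoters of the Hspa1a and Hspa1b copies are. Capitals mark GAANNTTC, a pair of the units that heat shock factors bind (it reads the same on both strands). The windows are chr5:135887669-135887968 (Hspb1, plus strand), chr17:34972107-34972406 (Hspa1a, minus strand) and chr17:34959189-34959488 (Hspa1b, minus strand), each written 5′ to 3′ along the gene.
Hspb1: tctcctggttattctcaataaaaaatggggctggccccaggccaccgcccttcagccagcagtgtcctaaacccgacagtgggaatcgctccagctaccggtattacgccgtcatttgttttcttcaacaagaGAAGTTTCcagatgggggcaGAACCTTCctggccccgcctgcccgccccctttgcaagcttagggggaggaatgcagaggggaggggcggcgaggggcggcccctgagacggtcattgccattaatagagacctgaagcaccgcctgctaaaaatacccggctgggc
Hspa1a: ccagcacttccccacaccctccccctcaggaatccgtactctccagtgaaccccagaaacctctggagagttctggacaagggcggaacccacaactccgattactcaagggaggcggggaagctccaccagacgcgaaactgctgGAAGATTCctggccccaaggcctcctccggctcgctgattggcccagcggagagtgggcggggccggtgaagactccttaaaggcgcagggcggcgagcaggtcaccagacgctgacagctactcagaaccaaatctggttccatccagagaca
Hspa1b: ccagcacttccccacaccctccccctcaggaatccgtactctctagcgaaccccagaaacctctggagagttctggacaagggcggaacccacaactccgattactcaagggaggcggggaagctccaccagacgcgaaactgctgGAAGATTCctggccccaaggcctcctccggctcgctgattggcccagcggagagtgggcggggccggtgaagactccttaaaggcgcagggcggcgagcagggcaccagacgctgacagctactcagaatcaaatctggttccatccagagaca

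Hspb1 held 2 matches, beginning 117 and 97 bases before the start, and Hspa1a and Hspa1b held 1 each, beginning 104 bases before it. The same letters occur in 7.86% of the 32851 promoters in the table. No match to the reversed pair TTCNNGAA (8.52% of all promoters), to 3 consecutive units (0.603%), to the antioxidant element core TGACNNNGC (12.4%) or to the AP-1 site TGAGTCA (5.2%), on either strand, lay in any of the 9 windows of the 8 members. That says only that these letters are not in these windows. The Hspa1a and Hspa1b windows are identical at 296 of 300 bases. From Hspa1a to Hspa1b, counting from 1 at the 5′ end of the window, they differ by C44T, T47C, T249G and C276T.

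Between EP300 KO and EP300 WT, 5 of the 10 members fell and none rose. Those that fell were the keratins Krt18 and Krt23, the p62 gene Sqstm1, the crosslinker Tgm2 and the small heat shock protein gene Hspb1, to between 0.601 and 0.82 of the EP300 WT level. The other 5 did not pass. At the same threshold (edgeR quasi-likelihood test, adjusted p below 0.05) 34.2% of all tested genes were called, 17.5% lower and 16.7% higher. The members' median log2 fold change was -0.26, against -0.01 over all tested genes. At an unadjusted p under 0.05 the counts were also 5 lower and 0 higher. DESeq2 called 3 lower and 0 higher, and limma-voom 5 lower and 0 higher. With no filter on low counts, only Tgm2 was called, and without EP300 WT replicate 1 or 2 the calls were 3 or 1. In 6 members both EP300 KO libraries lay below both EP300 WT libraries, which held for 33.5% of tested genes, and in 1 both lay above, which held for 32.9%. With no filter, 2703 of 24666 genes were called, and without EP300 WT replicate 2, 2306 of 14679, so the members' 1 call under either setting was no larger a share than that of all genes. Nothing particular to the members is read from these shares.

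**Figure D1:**
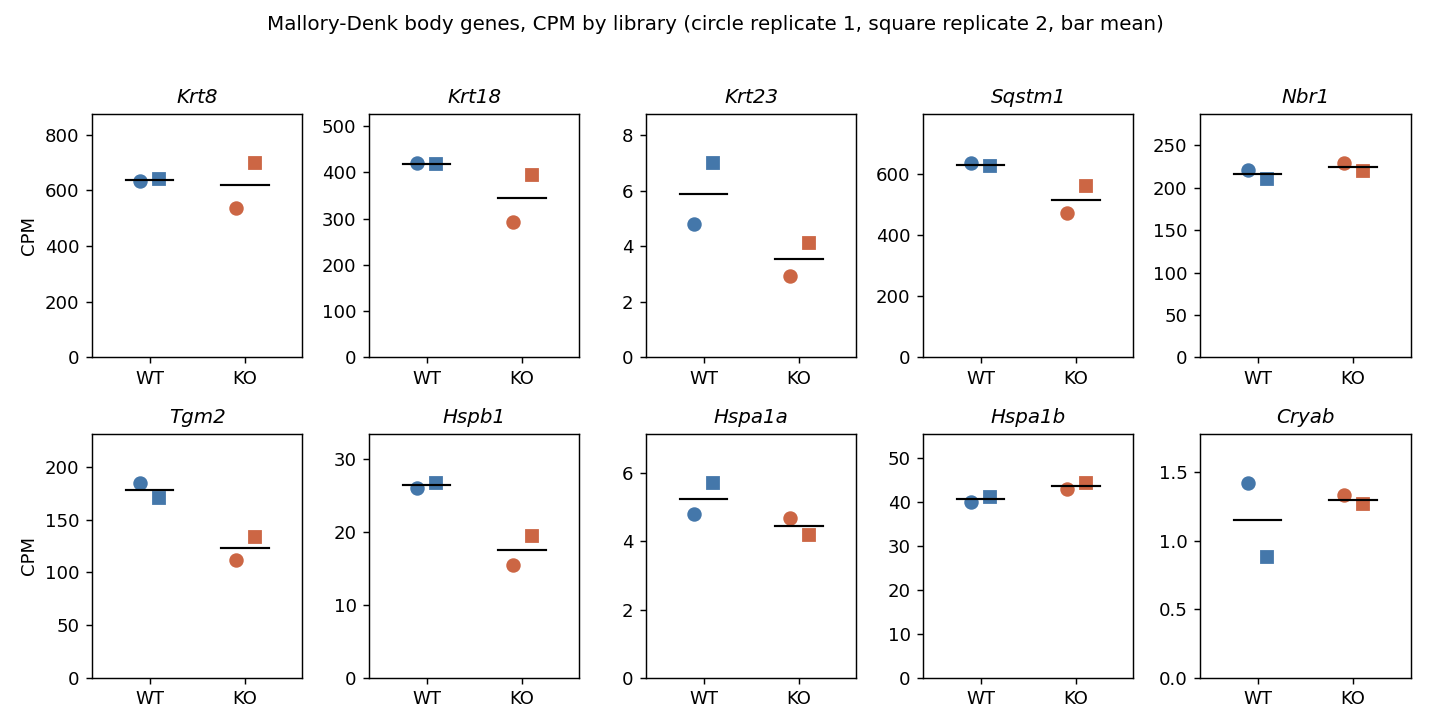
CPM of each member (vertical axis from 0, own scale per panel) in the 2 EP300 WT and 2 EP300 KO libraries, with circles for replicate 1, squares for replicate 2 and bars for the mean of 2 libraries. In the panels of Krt18, Krt23, Sqstm1, Tgm2, Hspb1 and Hspa1a both KO points lie below both WT points, and in Krt8 the KO points straddle the WT points.

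Krt8 (chromosome 15, 101996698 to 102004482, minus strand, mm10) encodes keratin 8, the type II partner in the hepatocyte filament. It stood at 538 and 699 CPM in EP300 KO replicates 1 and 2 and at 635 and 639 in EP300 WT. The EP300 KO libraries lay on either side of the EP300 WT pair, so the groups overlapped. The log2 fold change was -0.04 (SE 0.09, 95% interval -0.23 to 0.14, edgeR adjusted p = 0.744). With EP300 KO replicate 1 left out it was 0.15, and with EP300 KO replicate 2 left out -0.24, so the direction of Krt8 rests on which EP300 KO library is kept. Of the 75-base windows of the Krt8 transcript, 22.0% also occur in the pseudogene Krt8-ps. The pseudogene had 9 to 21 counts per library against 9290 to 12303 for Krt8. The counting of shared reads is not described, so these counts cannot show their effect on Krt8.

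Krt18 (chromosome 15, 102028180 to 102032027, plus strand) encodes keratin 18, the type I partner, and lies beside Krt8. It stood at 294 and 394 CPM in EP300 KO and at 421 and 417 in EP300 WT. Both EP300 KO libraries were lower than both EP300 WT libraries, replicate 2 only slightly. Krt18 fell by 0.29 on the log2 scale (SE 0.09, edgeR adjusted p = 0.0262). The call ended without EP300 KO replicate 1 (log2 fold change -0.08, adjusted p = 0.22), without either EP300 WT library (adjusted p = 0.246 and 0.282) and with DESeq2 (adjusted p = 0.447), and the value was -0.51 without EP300 KO replicate 2.

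Keratins 8 and 18 assemble in equal amounts, and in mouse liver an excess of keratin 8 over keratin 18 is known to favour inclusions. The ratio of Krt8 to Krt18 CPM was 1.83 and 1.78 in EP300 KO replicates 1 and 2 and 1.51 and 1.53 in EP300 WT replicates 1 and 2. Both EP300 KO libraries were above both EP300 WT libraries, although their levels of either keratin were far apart. Per length of exon, the same ratios were 1.34 and 1.30 in EP300 KO and 1.11 and 1.12 in EP300 WT, so Krt8 RNA exceeded Krt18 RNA in all 4 libraries. The group means were 1.80 ± 0.0383 and 1.52 ± 0.0165 (CPM ratio, SD, n = 2 each). The difference in log2 ratio, EP300 KO minus EP300 WT, was 0.25 (exact permutation test, two-sided, p = 0.333, the smallest that 2 against 2 libraries can give). Leaving out single libraries gave 0.22 to 0.27.

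**Figure D2:**
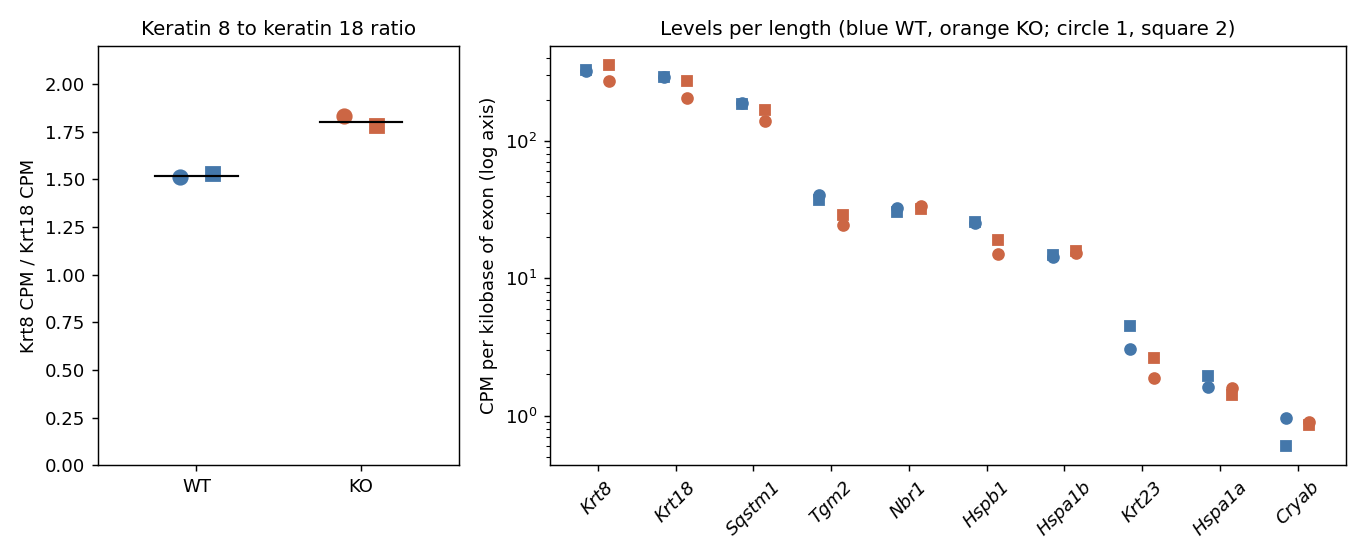
Left, ratio of Krt8 to Krt18 CPM in each library (axis from 0; bars are means of 2 libraries); right, CPM per kilobase of exon for each member on a log axis, in the order of EP300 WT, with WT in blue and KO in orange. The KO ratios, 1.78 and 1.83, lie above the WT ratios, 1.51 and 1.53, and on the right the keratin pair and Sqstm1 stand apart from the other 7 members.

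Krt23 (chromosome 11, 99477974 to 99493137, minus strand) encodes a type I keratin that is scarce in healthy liver and induced by DDC. It was low, at 2.95 and 4.14 CPM in EP300 KO and 4.79 and 7.02 in EP300 WT, on 51 to 135 counts per library. The groups did not overlap, although the 2 EP300 WT libraries differed from each other more than the groups' nearest libraries did. Krt23 fell by 0.74 on the log2 scale (SE 0.23, edgeR adjusted p = 0.0221), the largest fall among the members. It did not pass without EP300 KO replicate 1 (adjusted p = 0.0827), without EP300 WT replicate 2 (log2 fold change -0.42, adjusted p = 0.365) or with DESeq2 (adjusted p = 0.142).

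Sqstm1 (chromosome 11, 50199366 to 50210827, minus strand) encodes p62, the receptor that binds ubiquitin chains and carries cargo to the autophagosome. It stood at 472 and 560.0 CPM in EP300 KO and at 637 and 626 in EP300 WT. Both EP300 KO libraries were lower than both EP300 WT libraries, and the EP300 WT pair was the closer one. Sqstm1 fell by 0.29 on the log2 scale (SE 0.07, edgeR adjusted p = 0.00357, and 0.00209 with DESeq2). Without EP300 KO replicate 1 the value was -0.16, a fit whose spread comes from the EP300 WT pair alone. The call ended without either EP300 WT library. The library kit does not mark strand, so reads of overlapping genes cannot be told apart. On the opposite strand Mrnip overlaps 17.3% of the exon bases of Sqstm1, and had 20 to 34 counts per library against 8159 to 12098 for Sqstm1. Since the counting of reads in shared bases is not described, these counts cannot show their effect on Sqstm1.

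Nbr1 (chromosome 11, 101552149 to 101581951, plus strand) encodes a second receptor of the same build, which joins p62 in the inclusions. It stood at 229.6 and 219.9 CPM in EP300 KO and at 222 and 210.0 in EP300 WT. The groups overlapped, and all 4 libraries lay close together. The log2 fold change was 0.06 (SE 0.06, 95% interval -0.07 to 0.18, edgeR adjusted p = 0.49), so a fall of the size of Sqstm1 lay outside its interval. With scaling by library size alone it was -0.01. The difference between Nbr1 and Sqstm1 was not itself tested.

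Tgm2 (chromosome 2, 158116402 to 158146436, minus strand) encodes transglutaminase 2, which crosslinks keratin 8 into the inclusion. It stood at 112 and 133 CPM in EP300 KO and at 185 and 171 in EP300 WT. The groups were well apart, the highest EP300 KO library lying below the lowest EP300 WT library by more than either pair's own spread. Tgm2 fell by 0.54 on the log2 scale (SE 0.08, edgeR adjusted p = 5.09e-05), and passed in all 12 alternatives, at -0.66 to -0.40. Of its exon bases 21.8% overlap Rprd1b or Gm20412 on the other strand. Rprd1b stood at 20.7 to 23.9 CPM without a called change (log2 fold change 0.11, edgeR adjusted p = 0.397), and Gm20412 had 0 counts. These values cannot show the effect of reads in the shared bases on Tgm2. Endothelial cells also make Tgm2, and of their 10 markers given above 5 fell and 5 did not pass. Their part in the fall of Tgm2 was not tested.

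Hspb1 (chromosome 5, 135887919 to 135889563, plus strand) encodes the small heat shock protein that coats keratin filaments in stress. It stood at 15.4 and 19.4 CPM in EP300 KO and at 26.0 and 26.7 in EP300 WT. Both EP300 KO libraries were clearly lower, and the EP300 WT pair lay close together. Hspb1 fell by 0.60 on the log2 scale (SE 0.11, edgeR adjusted p = 0.000483), and missed the threshold without EP300 WT replicate 2 (adjusted p = 0.0538). Of its 75-base windows, 46.4% also occur in the pseudogene Hsp25-ps1, which had 0 or 1 count per library. How shared reads were counted is not given, so that count cannot show their effect on Hspb1.

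Hspa1a (chromosome 17, 34969190 to 34972156) and Hspa1b (chromosome 17, 34956436 to 34959238), both on the minus strand, encode the stress-inducible HSP70, which refolds damaged proteins. Their transcripts share much of their sequence, as their promoters above do: 52.7% of the 75-base windows of Hspa1a occur in Hspa1b and 55.8% of those of Hspa1b in Hspa1a. The sources used here do not say how the counting treated such reads, so the 2 values are uncertain. Their sum does not depend on how reads were split between the copies, but it would lack any reads that were dropped. Hspa1a stood at 4.69 and 4.20 CPM in EP300 KO and 4.79 and 5.72 in EP300 WT, lower in both EP300 KO libraries by a narrow margin (log2 fold change -0.24, 95% interval -0.65 to 0.17, edgeR adjusted p = 0.367). Hspa1b stood at 43.0 and 44.3 CPM in EP300 KO and 40.1 and 41.2 in EP300 WT, higher in both (0.10, 95% interval -0.06 to 0.26, adjusted p = 0.324). Summed as 1 feature they stood at 47.7 and 48.5 CPM in EP300 KO and 44.9 and 46.9 in EP300 WT, a log2 fold change of 0.07 (SE 0.07, adjusted p = 0.524). Neither gene nor the sum passed, and the interval of Hspa1b does not reach the fall of Hspb1.

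Cryab (chromosome 9, 50751325 to 50756636, plus strand) encodes alpha B-crystallin, a small heat shock protein best known from lens and muscle and found in the inclusions. It was the scarcest member, with 23 and 22 counts in EP300 KO and 27 and 17 in EP300 WT, or 0.883 to 1.42 CPM. The EP300 KO pair lay between the EP300 WT libraries. The log2 fold change was 0.17 (95% interval -0.61 to 0.95, edgeR adjusted p = 0.761), an interval that leaves a fall of the size of Krt18 or Hspb1 within it. It was -0.12 without EP300 WT replicate 2. None of 8 striated and heart muscle markers passed the filter, with sums of 0.287 to 0.579 CPM per library, and 3 of them (Ckm, Myh6 and Mb) had 0 counts in all 4 libraries. Hspb2, on the other strand and overlapping 17.0% of Cryab's exon bases, had 0 to 2 counts, which cannot show the effect of reads in the shared bases on Cryab.

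**Figure D3:**
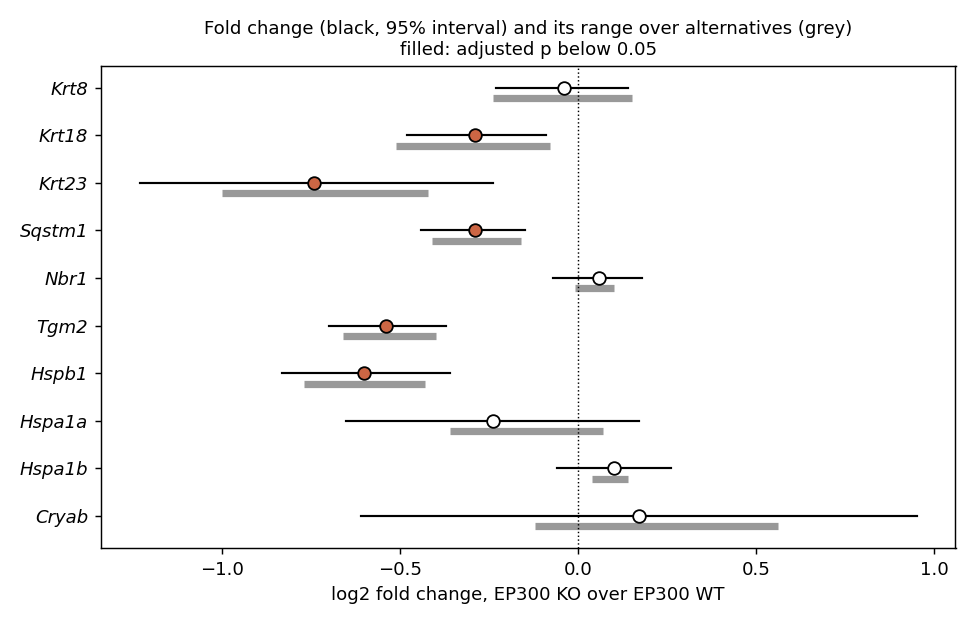
Log2 fold change of each member, EP300 KO over EP300 WT (points, filled where adjusted p is below 0.05), with its 95% interval in black and in grey the lowest to highest value over the alternatives. The 5 filled points lie between -0.74 and -0.29, and the grey range crosses 0 in Krt8, Nbr1, Hspa1a and Cryab.

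The 2 EP300 KO libraries were unlike each other in some of these genes. Of the 10 members 7 were lower in replicate 1 than in replicate 2 (the 5 that fell, Krt8 and Hspa1b), and Nbr1, Hspa1a and Cryab were higher. Of all tested genes 49.1% were lower in replicate 1. Krt8 and Krt18 differed most between the EP300 KO libraries in CPM, by 162 and 99.9, a measure that grows with the level of a gene. In EP300 WT the same 2 genes differed between libraries by 4.53 and 3.46 CPM. In Krt23 (2.22 against 1.19 CPM), Nbr1, Hspa1a and Cryab the EP300 WT pair differed by more than the EP300 KO pair. In the other members it differed by less.

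Per length of exon (CPM per kilobase), Krt8 led in EP300 WT at 325 ± 1.63 (SD, n = 2), followed by Krt18 at 292 ± 1.70, Sqstm1 at 188 ± 2.43, Tgm2 at 38.6 ± 2.18, Nbr1 at 31.4 ± 1.19, Hspb1 at 25.5 ± 0.478, Hspa1b at 14.5 ± 0.286, Krt23 at 3.77 ± 1.00, Hspa1a at 1.77 ± 0.22 and Cryab at 0.779 ± 0.257. No neighbours in that order overlapped between their 2 libraries. The lengths take no account of sequence shared with other genes, so the places of Hspb1, Hspa1a and Hspa1b are uncertain. In EP300 KO the order was the same but for Nbr1 (32.7 ± 0.999), which stood above Tgm2 (26.6 ± 3.30). There Hspb1 (14.9 and 18.8) and Hspa1b (15.3 and 15.8) overlapped, and the lower Krt8 library (274.6 and 357.1) lay beside the higher Krt18 library (204.3 and 273.8). Using the longest transcript as the length left the order unchanged in both groups.

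The genes around the inclusion were read from lists drawn up for this purpose. Each list's counts stand beside the shares over all tested genes, of which 17.5% fell and 16.7% rose (34.2% in either direction), with a median log2 fold change of -0.01. Of the 20 other keratins, 4 passed the filter and none was called by edgeR, DESeq2 or limma-voom (1 at an unadjusted p under 0.05). Krt20, the highest of them by CPM, stood at 2.49 and 2.53 CPM in EP300 KO and 4.84 and 3.01 in EP300 WT (log2 fold change -0.64, SE 0.26, edgeR adjusted p = 0.0704). It passed with library size scaling (0.0466) and with the replicate number as a block (0.0367). Krt1, Krt2, Krt6a, Krt6b, Krt12, Krt13 and Krt17 had 0 counts in all 4 libraries. The 20 genes together summed to 5.44 to 9.32 CPM per library, far below Krt8 or Krt18.

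Of 17 genes of plakins, desmosome proteins and other filament proteins (Vim and Lmna), 8 fell and 2 rose (median -0.17). Dsc2, a desmosomal cadherin, stood at 61.5 and 51.8 CPM in EP300 KO and 90.2 and 87.5 in EP300 WT and fell by 0.65 on the log2 scale (SE 0.08, edgeR adjusted p = 8.56e-06). Lmna, which encodes the nuclear lamins A and C, fell by 0.47 (SE 0.07), with 72.0 and 79.1 CPM against 104.5 and 104.8. Eppk1, the keratin-binding plakin epiplakin, went the other way, at 42.7 and 40.4 CPM against 29.5 and 31.4, and rose by 0.45 (SE 0.08, adjusted p = 0.000456). Pkp1, a desmosomal plakophilin named after its values were seen, had 4 and 2 counts in EP300 KO and 72 and 94 in EP300 WT (log2 fold change -4.59, SE 0.42). Without EP300 WT replicate 1 the list had 5 calls in place of 10.

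Of 8 transglutaminases other than Tgm2, 3 passed the filter, 2 of which fell and none rose (edgeR; unadjusted 2 and 1, DESeq2 2 and 0, limma-voom 2 and 1). Tgm1, the keratinocyte enzyme, stood at 15.6 and 20.2 CPM in EP300 KO and 56.6 and 52.6 in EP300 WT and fell by 1.61 on the log2 scale (SE 0.10, edgeR adjusted p = 5.49e-09). F13a1, the coagulation factor XIII A subunit made by macrophages, fell by 1.68 (SE 0.16), from 12.5 and 11.6 CPM to 3.65 and 3.85. Both falls were larger than that of Tgm2, a difference between genes that was not tested. F13b, which has no crosslinking activity of its own, did not pass (0.16, adjusted p = 0.0613).

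Of 34 core autophagy and lysosome genes, 12 rose, 1 fell and 21 did not pass (median 0.10), and with library size scaling 11 rose and 2 fell. Wipi1, which marks the forming autophagosome, stood at 15.5 and 14.5 CPM in EP300 KO and 9.69 and 9.98 in EP300 WT and rose by 0.61 (log2, SE 0.12, edgeR adjusted p = 0.000767). Ulk2, an initiating kinase, rose by 0.57 (SE 0.08), with 62.6 and 54.1 CPM against 38.4 and 39.9, and Atg9a, which supplies membrane, by 0.55 (SE 0.08), with 39.2 and 37.9 against 27.6 and 25.2, although 32.6% of its exon bases overlap other genes. DESeq2 called 8 of the list, all higher. Without EP300 WT replicate 1 or 2 the list had 8 or 7 calls in place of 13, all upward.

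Of the 16 other selective receptors and their regulators in the table, 6 rose and 2 fell (median 0.11), but with library size scaling 1 rose and 5 fell, so the direction of this list depends on the scaling. Optn, the receptor optineurin, stood at 80.8 and 86.0 CPM in EP300 KO and 67.7 and 64.9 in EP300 WT and rose by 0.33 (log2, SE 0.07, edgeR adjusted p = 0.00116). Calcoco1 rose by 0.27 (SE 0.08), and did not pass with DESeq2, with library size scaling or without either EP300 WT library. Fundc1, a receptor on mitochondria, fell by 0.67 (SE 0.14), with 7.58 and 6.50 CPM against 10.7 and 11.6. DESeq2 called 3 higher and 2 lower. Without EP300 WT replicate 2 no receptor of the list passed (edgeR), and without replicate 1 there were 2 calls.

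Of 13 ubiquitin and ubiquitin-like genes, 5 fell, 0 rose and the other 8 did not pass (median -0.19). Of all tested genes 17.5% fell, and 34.2% were called in either direction. Ubd, which encodes FAT10, a ubiquitin-like modifier known to be induced with Mallory-Denk bodies, stood at 15.0 and 21.6 CPM in EP300 KO and 27.0 and 25.9 in EP300 WT. It fell by 0.53 on the log2 scale (SE 0.13, edgeR adjusted p = 0.00453), a call that ended without EP300 WT replicate 1 (adjusted p = 0.116) or replicate 2 (0.115) and with no filter (0.17), and the value was -0.28 without EP300 KO replicate 1. Like the members that fell, it was lower in EP300 KO replicate 1 than in replicate 2. Rps27a, a ribosomal protein fused to ubiquitin, fell by 1.26 (SE 0.13), from 144.6 and 116.8 CPM to 65.4 and 44.1. Sumo3 fell by 0.47 (SE 0.09), with 27.2 and 31.3 CPM against 39.5 and 41.3. Without EP300 WT replicate 2 the list had 1 call.

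The proteasome, the other route for ubiquitinated protein, moved little: of 38 subunits and activators 3 rose, 1 fell and 34 did not pass (median 0.05), and with library size scaling 1 rose and 1 fell. Psme4, an activator of the proteasome, stood at 98.0 and 100.1 CPM in EP300 KO and 74.8 and 74.6 in EP300 WT and rose by 0.41 (log2, SE 0.06, edgeR adjusted p = 0.000103). Psme3 and Psmb7 each rose by 0.24 (SE 0.08 and 0.07), and did not pass with library size scaling or DESeq2, which called 1 gene of the list. Without EP300 KO replicate 1 the list had 9 calls, all upward, and without EP300 WT replicate 1 or 2 it had 1 or 2.

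Of 33 tested genes in a list of other chaperones, co-chaperones and heat shock factors, which includes the mitochondrial chaperonins Hspd1 and Hspe1, 12 fell and 2 rose (median -0.09). Hsp90aa1, the inducible HSP90, stood at 163 and 171 CPM in EP300 KO and 230.4 and 235.5 in EP300 WT and fell by 0.48 (log2, SE 0.06, edgeR adjusted p = 8.81e-06). Hspa4l, an HSP110 relative, fell by 0.76 (SE 0.08), from 39.6 and 40.2 CPM to 24.1 and 23.0. Hsf2, a heat shock transcription factor, fell by 0.49 (SE 0.10). The 2 that rose were Hsf1, another heat shock factor, by 0.35 (SE 0.10), and Bag3, by 0.34 (SE 0.07). They are named because they went the other way. DESeq2 called 9 of the list, and without either EP300 WT library there were 6 calls in place of 14. Of the 9 other small heat shock proteins 3 passed the filter, and 1, Hspb6, rose (0.53, SE 0.16, adjusted p = 0.016), a call lost without either EP300 WT library and with DESeq2. It is named because it was the only call of its list.

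**Figure D4:**
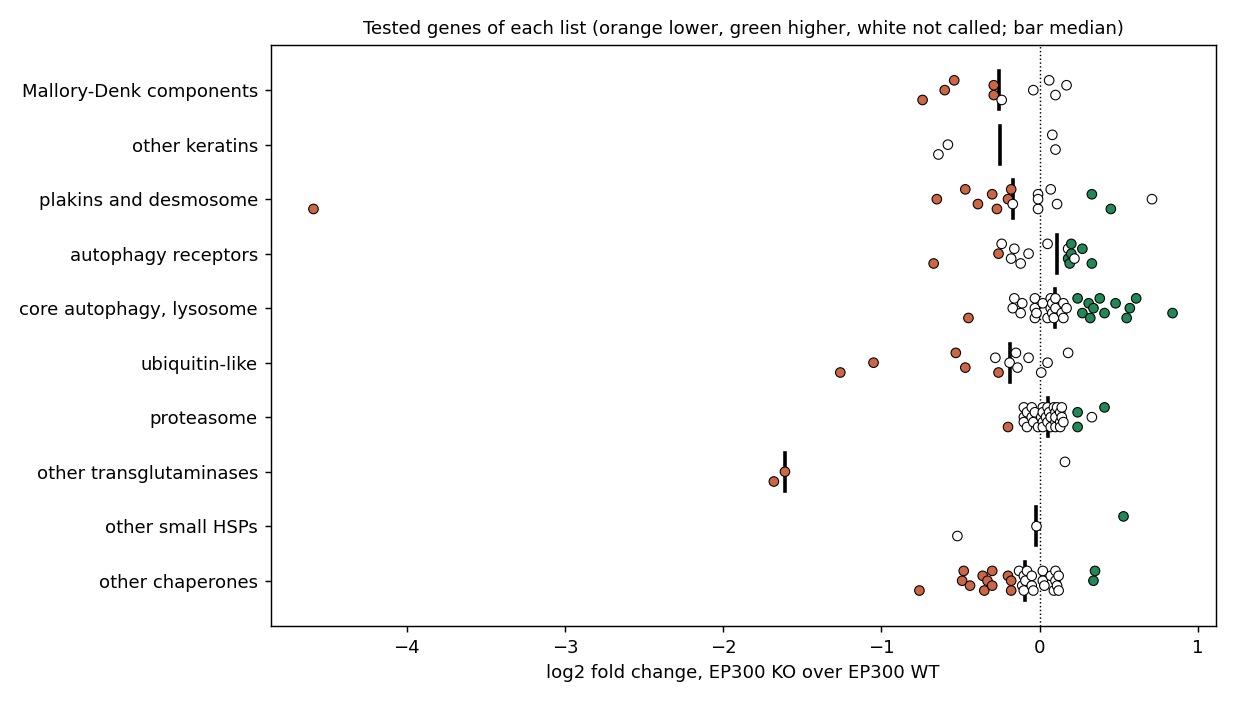
Log2 fold change, EP300 KO over EP300 WT, of every tested gene of the members and of each list (points: orange fell, green rose, white did not pass; vertical bars are list medians). The members have a median of -0.26 and no green point, the core autophagy list has 12 green points and 1 orange point, and the point at -4.59 is Pkp1.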

How the data were processed

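RNA-seq read counts per gene were analysed for 2 EP300 KO and 2 EP300 WT libraries, grouped and numbered by their titles. The authors deposited whole-number counts in 1 table. Per the submitters' processing notes, mm10, HTSeq, STAR and DESeq2 were used, in roles not stated. The deposited counts are labelled Hisat, so which aligner made them is not settled here. Annotation, strand setting and multi-mapped reads are not given in the sources used here. The 4 columns that match no sample, and the tables of the diet experiment, were not used here. Symbols matched 55144 of 55385 identifiers, and lengths and positions come from GENCODE M21.

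Counts were fitted over all genes with edgeR 4.0.16 in R 4.3.3 (quasi-likelihood, TMM, filterByExpr with minimum count 10, group only, Benjamini-Hochberg, threshold 0.05). A log2 fold change is EP300 KO over EP300 WT, and its SE was derived from the F statistic. Residual degrees of freedom were 2, and the common coefficient of biological variation 5.47%. The keratin ratio used a pseudocount of 0.5 CPM. Alternatives were DESeq2 1.42.0, limma-voom (limma 3.58.1), other scalings and filters, a replicate block, the HSP70 copies summed and each library left out.

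Members and lists were chosen with earlier results of these data known. Beyond the members, up to 3 called genes per list with the largest changes and a mean of at least 10 CPM in the higher group are named, or the highest gene of a list with no call.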

Additional observations from a re-analysis of the deposited data

How the results depend on the processing

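Of 121 member values under alternatives, 102 kept direction and side of the threshold, a count that includes the 5 members not called. Among the 5 called, each with 12 alternatives, Krt18 lost its call in 5, Krt23 in 4, Sqstm1 in 3, Hspb1 in 2 and Tgm2 in 0. Genes called numbered 4851, and 2937 with DESeq2, 2703 without a filter and 2306 to 5154 with a library left out. Members called numbered 5, and 3 with DESeq2, 1 without a filter (Tgm2) and 1 to 6 with a library left out. Calls in the pathway lists numbered 57, and 33 without a filter and 25 to 69 with a library left out. Of these calls 26 were higher and 31 lower, and with library size scaling, which moved the median of all genes to -0.07, 18 and 39. Over all genes that scaling gave 1846 higher and 3056 lower. Member values changed sign in 4 cases: Krt8 without EP300 KO replicate 1 (0.15), Nbr1 with library size scaling (-0.01), Hspa1a summed with Hspa1b (0.07) and Cryab without EP300 WT replicate 2 (-0.12). Krt8 was -0.24 without EP300 KO replicate 2, and Cryab 0.56 without EP300 WT replicate 1. The cause was not tested. Cryab could not be tested at a minimum count of 30. With the replicate number as a block, 5190 genes and 5 members were called and the keratin ratio difference was 0.25. Deviations of same-numbered libraries correlated at -0.00075 across 14200 genes. With 2 libraries per group this value cannot show whether same-numbered libraries were handled together, so that stays unknown. With a library left out, its group has 1 library, assumed to vary like the other group. The EP300 KO pair differed more from each other (chi-square per degree of freedom 5.5) than the EP300 WT pair (2.6). P-values with an EP300 KO library left out therefore do not measure the spread of EP300 KO. Depth limits Cryab most, at 17 to 27 counts per library.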
